A study of Mus musculus with 8 samples.

Results

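The Adam and Prss genes of the deposited mouse spermatid table encode 2 families of proteases and protease-like proteins, many of which sit on the sperm surface or in the acrosome. They were chosen by symbol: every gene whose name begins with Adam or Prss directly followed by a digit, with the Adamts genes left out. This gave 55 of the 16349 genes in the table, 31 Adam and 24 Prss. The rule uses the symbol alone, although the family was picked with earlier results of these data known. All 55 passed the filter on low values used for testing.

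RNA was measured in 4 groups of 2 libraries: round spermatids and elongating spermatids, each from mice with a genotype labelled WT or cKO. The study's design text names Carm1, an arginine methyltransferase and transcriptional coactivator, as the deleted gene, and asks which genes differ upon its loss at each stage. All groups are C57BL/6 testis cells that received no treatment, with 8 testes pooled per sample and centrifugal elutriation as the separation. The labels do not give the Cre driver or the age of the mice. Libraries are called KO-labelled below, because Carm1 itself went against the label at 1 stage: in round cells its normalised read count was 1649 and 1686 in WT against 1174 and 1343 in KO-labelled libraries, but in elongating cells 4308 and 4534 against 8157 and 7993. It therefore fell in round (log2 fold change -0.41, SE 0.05, adjusted p = 3.8e-05) and rose in elongating spermatids (log2 fold change 0.87, SE 0.05, adjusted p = 2.7e-09), by 0.31 under total-count scaling. A count over the whole gene does not show whether a deleted part was transcribed.

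ADAM proteins are membrane-anchored and carry a metalloprotease, a disintegrin and a cysteine-rich domain. On sperm, several of them work less as enzymes than as adhesion molecules. ADAM2 pairs with ADAM1B on the sperm surface as fertilin, while its pair with ADAM1A acts in the endoplasmic reticulum and is needed for ADAM3, also called cyritestin, to reach the surface. ADAM3 is required for sperm to enter the oviduct and bind the egg coat. The PRSS genes encode trypsin-like serine proteases, of which the testis-specific ones are secreted, stored in the acrosome or tethered to the membrane by a lipid anchor. PRSS37 and PRSS55 are known to be required for male fertility.

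The neighbours Prss39 and Prss40 rose together in each genotype and stage comparison, and Adam20 and Adam25 fell together with stage and in elongating KO-labelled cells, so the DNA just upstream of these 4 genes is shown first. Adam24 and Adam39, of the same chromosome 8 cluster as Adam20 and Adam25, also fell in elongating KO-labelled cells. The log2 fall of Adam39, -0.23, was lost without elongating KO-labelled library 2 (-0.15), elongating WT library 1 (-0.23) or elongating WT library 2 (-0.23). With stage in WT, Adam24 fell (-0.84) while Adam39 rose (0.53, but -0.93 under total-count scaling). Transcripts of Adam20, Adam25 and Adam39 share sequence, as given below, so their counts may not be independent. A part of the upstream DNA in the differences of these genes was not tested. Sequences are from RefSeq on GRCm38.p6 and run 5′ to 3′ on the gene's strand from base -160 to base -11 before the annotated start. Capitals mark runs of at least 12 letters that also occur in the partner's 250 upstream bases. Prss39 lies at chr1:34498252-34498401, plus strand, and Prss40 at chr1:34560954-34561103, minus strand.
Prss39: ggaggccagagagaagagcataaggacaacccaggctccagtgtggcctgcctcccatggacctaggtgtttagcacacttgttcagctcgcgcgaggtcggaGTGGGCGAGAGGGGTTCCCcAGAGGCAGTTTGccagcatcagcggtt
Prss40: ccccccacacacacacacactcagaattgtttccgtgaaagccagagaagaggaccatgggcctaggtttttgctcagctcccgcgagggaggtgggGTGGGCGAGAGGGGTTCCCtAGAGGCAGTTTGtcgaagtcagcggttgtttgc
The capitals cover 31 of the 150 printed bases in each of these promoters, and the longest shared run is 19 bases. Adam20 lies at chr8:40793113-40793262 and Adam25 at chr8:40752048-40752197, both on the plus strand.
Adam20: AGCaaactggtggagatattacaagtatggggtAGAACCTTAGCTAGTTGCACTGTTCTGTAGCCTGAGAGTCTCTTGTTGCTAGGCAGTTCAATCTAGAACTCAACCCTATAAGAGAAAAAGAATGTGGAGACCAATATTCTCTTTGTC
Adam25: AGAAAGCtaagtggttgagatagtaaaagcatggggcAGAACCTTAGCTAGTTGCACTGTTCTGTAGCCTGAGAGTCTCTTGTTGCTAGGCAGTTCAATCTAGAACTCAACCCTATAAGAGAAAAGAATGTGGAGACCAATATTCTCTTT
Here capitals cover 120 of 150 bases in each gene, and the longest shared run is 88 bases. Of the 595 pairs among the 35 members with a promoter entry, a longer run was found only between Adam6a and Adam6b, at 149 bases.

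Short motifs were searched on both strands from 250 bases before to 50 after the start. TGACGTCA, the full cAMP response element letters, was in 0 of 35 member promoters and in 2.03% of the promoters of 27025 genes. Its inner stretch TGACG, which overlaps the full element, was in 4 of 35 (Adam10, Prss23, Prss35 and Prss38), 11.4%, against 23.0% of all genes. CCAAT was in 19 of 35, 54.3%, against 41.1%, and TATAAA was in Adam29, Adam6a and Adam6b, 8.57%, against 15.7%. These are matches of letters only. The members without an entry are Adam2, Adam3, Adam4, Adam5, Adam9, Adam11, Adam12, Adam18, Adam24, Adam26a, Adam30, Adam32, Adam33, Adam39, Prss43, Prss44, Prss48, Prss51, Prss52 and Prss55.

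Values below are normalised read counts, given for both libraries of a group in the order 1 and 2. Differences are log2 fold changes on the log2(value + 1) scale from limma, with the standard error (SE) and the Benjamini-Hochberg adjusted p over all 15685 genes tested. "Rose" and "fell" mean an adjusted p below 0.05 in the group named first. The recovered depth was 17190962 to 23526694 reads per library. The labels do not say whether replicate libraries came from different mice, and p-values therefore measure only the spread between libraries, which may be technical. In bulk RNA, fewer cells of a type and less RNA per cell cannot be told apart.

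The scale of the values matters for the direction of small changes. In the deposited scaling the median gene differed by a log2 of 0.01 between elongating and round WT spermatids and by -0.07 between elongating KO-labelled and WT spermatids. Scaling to the total reads moved these medians to -1.48 and -0.61. Rises and falls here are therefore relative to the typical gene of the deposited scaling, and the values of members whose direction turns are given where those members are described. Both other scalings tried lower every gene by about the same amount in these 2 comparisons, so falls had to hold and only rises could be lost. Of 25 stage rises 10 stayed called under both, and of 13 rises in elongating KO-labelled spermatids 4 did. The stage rises of Adam4, Adam9, Adam23, Adam39 and Prss41 were 1.37, 0.74, 1.19, 0.53 and 1.25 in the deposited scaling and -0.09, -0.71, -0.16, -0.93 and -0.20 under total-count scaling.

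As a check of the labels, the summed level of 7 elongating spermatid markers was 135120 to 156530 in the round, 2810000 and 2819200 in the elongating WT and 4909100 and 4760000 in the elongating KO-labelled libraries, and all 7 markers were detected. In elongating KO-labelled against WT cells all 7 rose, with a median log2 difference of 0.81. Of 7 round spermatid markers 4 fell and 1 rose there, with a median of -0.78, although their sum, 15668 and 15999 in WT against 15835 and 15913, overlapped. These stage markers thus differed between the genotypes at the elongating stage, and their part in the members' differences was not tested. Markers of other testis cells moved with the stage. The summed level of 7 spermatocyte markers was 8481 to 9034 in the round libraries. It was 3283 and 3335 in the elongating WT and 2764 and 2752 in the elongating KO-labelled libraries. In elongating KO-labelled against WT cells 4 of these 7 fell and 0 rose, with a median of -0.34. Their part in the members' falls was not tested. The summed level of 7 macrophage markers was 111 to 141 in the round and 4198 to 4219 in the elongating WT libraries, and 154 to 169 and 1746 to 1823 in those with the KO label. For Sertoli cells, 8 of 9 markers were in the table, and their sum was 177 to 291 in the round, 6172 to 6270 in the elongating WT and 4466 to 4611 in the elongating KO-labelled libraries. For peritubular and vascular cells, the sum of 6 markers was 159 to 214 in the round, 1591 to 1660 in the elongating WT and 2327 to 2445 in the elongating KO-labelled libraries. Within that list the contractile genes Acta2 and Myh11 rose in elongating KO-labelled cells while the endothelial genes Cdh5 and Pecam1 fell, with a median of -0.16. The part of these cells in the results for weakly expressed somatic members was not tested.

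A few transcripts made up most of the family signal. Members together took 0.757% to 0.772% of reads in round libraries and 0.454% to 0.475% in elongating ones. Adam3, Adam5 and Adam32 alone held 53.5% to 55.0% of the members' summed level in round and 49.0% to 49.3% in elongating libraries. The share of that sum from Prss genes was 19.0% and 19.6% in WT against 21.4% and 22.2% in KO-labelled libraries at the round stage, and 36.3% and 36.5% against 40.1% and 40.3% at the elongating stage. The groups did not overlap in this share, and at each stage it was higher in the KO-labelled libraries. At the elongating stage this rested on Prss39: without that gene the share was 27.9% and 28.1% in WT against 24.0% in both KO-labelled libraries, the opposite direction. At the round stage it was then 13.7% and 13.3% against 14.0% and 14.7%.

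Per kilobase of exon, the 6 highest members in round WT spermatids were Adam5 at 5936 normalised reads per kb, Adam3 at 5865, Prss39 at 4215, Adam32 at 3461, Adam2 at 1642 and Prss46 at 1385. In elongating WT spermatids they were Prss39 at 12551, Adam3 at 11289, Adam5 at 9547, Prss37 at 8806, Prss55 at 5716 and Prss58 at 5547. Adam3, Adam5 and Prss39 were in both lists, and Prss37, Prss55 and Prss58 took the places of Adam32, Adam2 and Prss46. At the other end, between 1 and 8 members lay below a normalised count of 10 in each library.

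**Figure D1:**
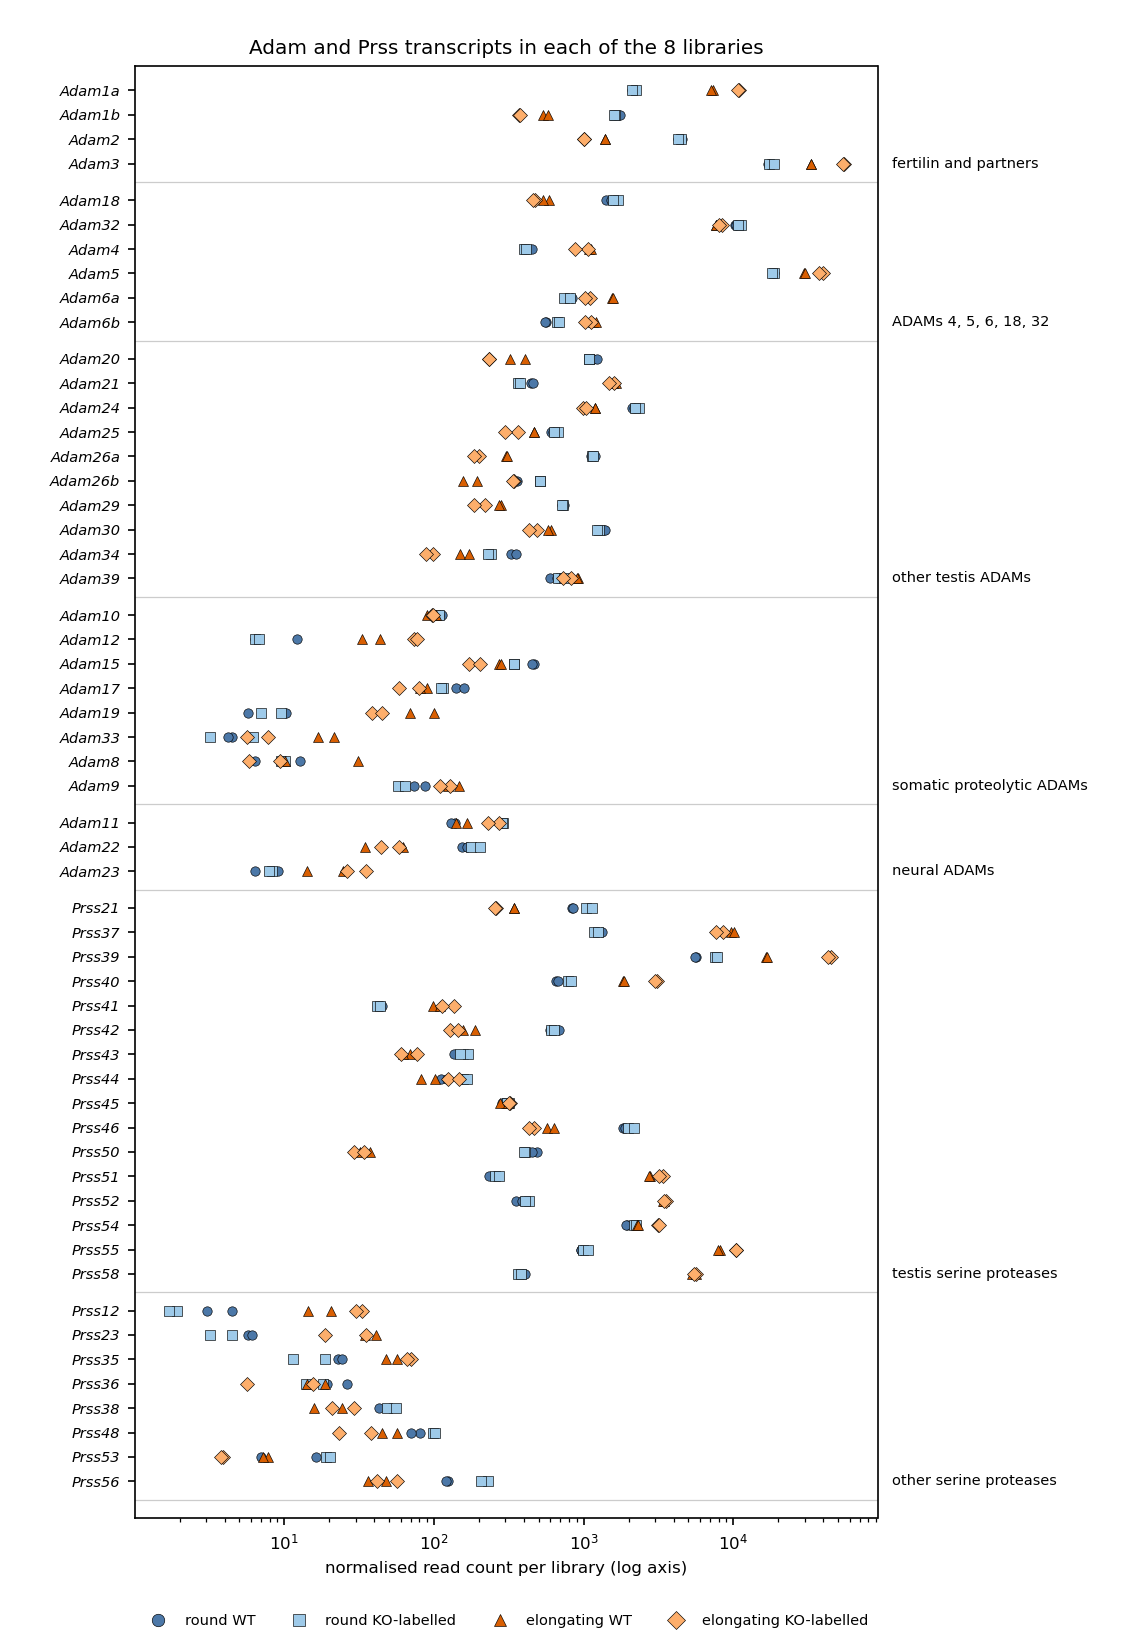
Normalised read count (log axis) of each of the 55 Adam and Prss transcripts, 1 point per library, grouped by role, with 2 libraries in each of the 4 groups. The sperm-surface and testis members span from 29.1 to 54788, and the somatic and other members lie mostly below 300.

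Most members differed between the stages in WT cells: 25 rose and 24 fell from round to elongating spermatids, where 41.7% of all tested genes rose and 40.2% fell. Their median log2 difference was 0.03, against 0.01 over all genes, and 35 members, 63.6%, were called with more than a 2-fold difference, against 56.0% of all genes. The same comparison within KO-labelled cells, added after the data were seen, gave 23 rises and 24 falls, against 42.6% and 41.8% of all genes. Of the 49 members called in WT, all had the same sign in KO-labelled cells and 46, 93.9%, were called in the same direction there. Over all genes called in WT, 96.7% had the same sign and 90.5% were called in the same direction. The members' shares in WT, 45.5% risen and 43.6% fallen, were near the background.

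**Figure D2:**
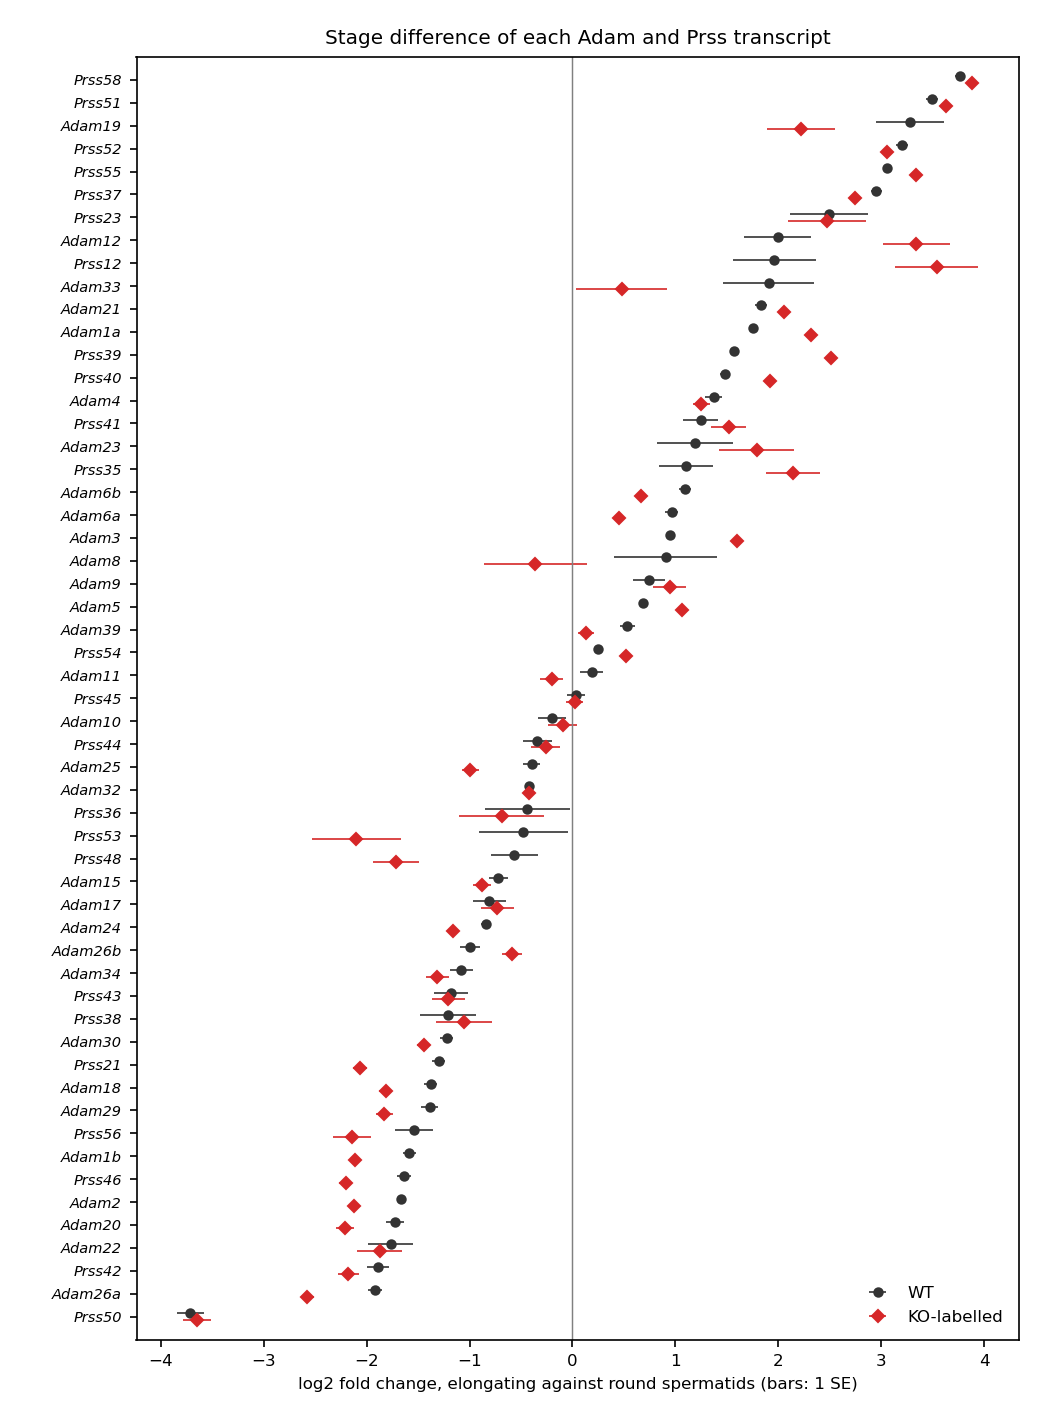
Log2 fold change of elongating against round spermatids for each of the 55 members (1 row per gene), in WT (circles) and KO-labelled cells (diamonds), with bars of 1 SE. The order runs from Prss58 at 3.77 to Prss50 at -3.71 in WT, and the sign is the same in both genotypes for all 49 members called in WT.

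In round spermatids, 10 members rose and 3 fell in KO-labelled against WT libraries, where 19.4% of all genes rose and 12.6% fell. In elongating spermatids, 13 rose and 21 fell, against 27.3% and 27.7% of all genes. The median member was 0.06 at the round and -0.16 at the elongating stage, against 0.03 and -0.07 over all genes. The knockout effect itself differed between the stages for 27 members, 11 higher and 16 lower in elongating spermatids, against 19.3% and 17.5% of all genes. The members' shares were 18.2% and 5.45% at the round and 23.6% and 38.2% at the elongating stage. Without elongating KO-labelled library 1 or 2 the falls in round spermatids numbered 6, and without round KO-labelled library 1 or round WT library 2 the effects that were higher in elongating spermatids numbered 7. Each of the 2 other scalings gave 10 falls in round, and 4 rises and 39 falls in elongating spermatids. Of all genes, total-count scaling then had 19.4% falling in round, and 8.77% rising and 62.3% falling in elongating spermatids, and library sizes without the 50 most abundant genes had 19.1%, 10.5% and 58.8%.

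Across the stages, 6 members rose in KO-labelled cells at both (Adam11, Adam26b, Prss39, Prss40, Prss44 and Prss54) and 2 fell at both (Adam15 and Adam34). Adam6b and Prss21 rose in round and fell in elongating spermatids. No member fell in round and rose in elongating spermatids. Of all genes, 12.2% rose at both stages, 6.36% fell at both, 2.71% rose in round and fell in elongating spermatids and 2.19% did the reverse, against 10.9%, 3.64%, 3.64% and 0 of the members. These counts are small and near the background, and the comparisons share no library.

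**Figure D3:**
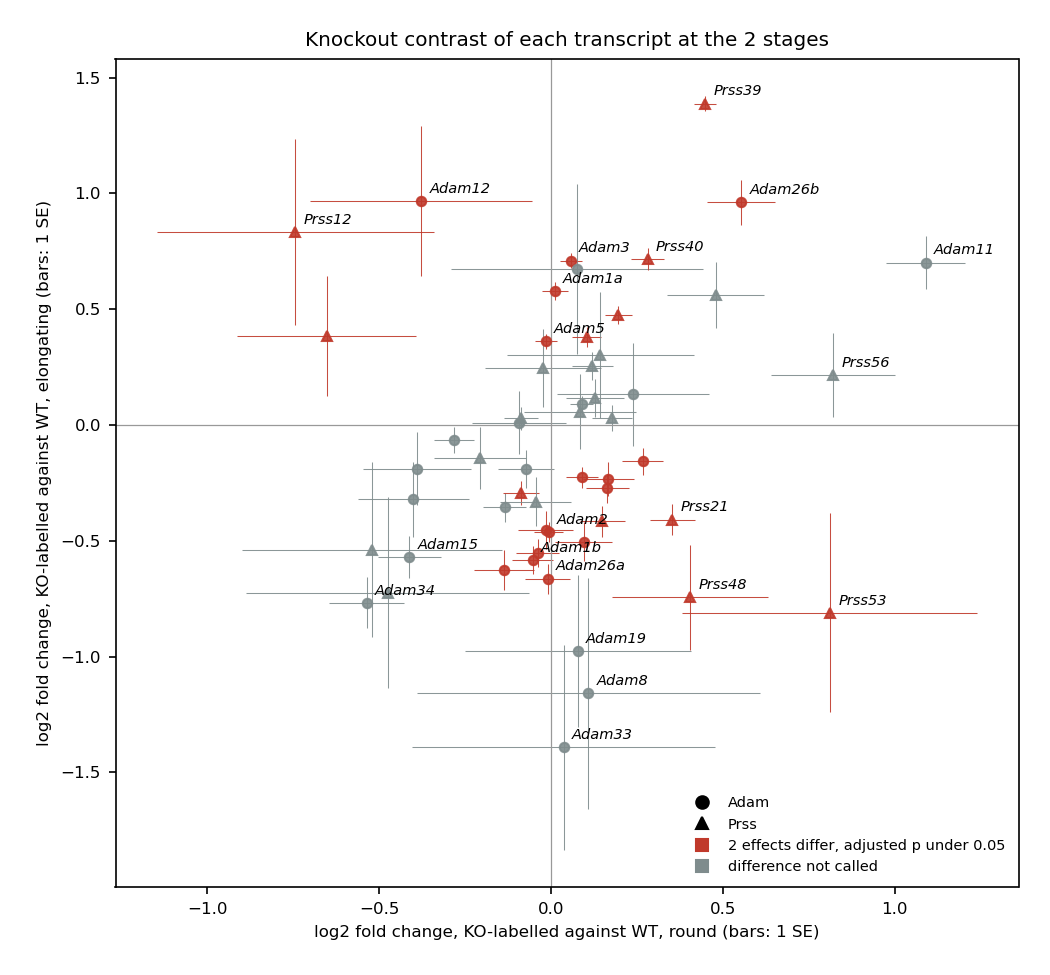
Log2 fold change of KO-labelled against WT libraries for each of the 55 members, in round (x axis) and elongating spermatids (y axis), 1 point per gene (circles Adam, triangles Prss) with bars of 1 SE. Red points are genes whose 2 effects differed (adjusted p under 0.05) and grey points those without that call. Prss39 is the member farthest up, at 0.45 and 1.39, and Adam2, Adam1b and Adam26a lie near 0 on the round axis and below -0.4 on the elongating axis.

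The fertilin genes and their partner split into opposite pairs. Adam1a (chr5:121518576-121545482, GRCm38) encodes the subunit of the endoplasmic reticulum pair and Adam1b (chr5:121500098-121503435) that of the surface pair. Adam1a measured 2117 and 2192 in round and 7374 and 7147 in elongating WT libraries, against 2224 and 2118 in round and 10882 and 10791 in elongating KO-labelled ones. Adam1b measured, from the round to the elongating stage, 1612 and 1745 and then 536 and 583 in WT, and 1627 and 1608 and then 368 and 377 with the KO label. The round libraries of both genotypes overlapped for both genes, while the elongating groups stood apart in opposite directions.

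From round to elongating WT cells Adam1a rose (log2 fold change 1.75, SE 0.04, adjusted p = 1.2e-15) and Adam1b fell (log2 fold change -1.58, SE 0.06, adjusted p = 1.5e-12). In elongating KO-labelled against WT cells Adam1a rose by 0.58 (SE 0.04, adjusted p = 4.9e-09), a call that was lost under total-count scaling at 0.01, and Adam1b fell (log2 fold change -0.58, SE 0.06, adjusted p = 9.2e-07). The ratio of Adam1a to Adam1b reads within a library, which no scaling changes, was 1.31 and 1.26 in WT against 1.37 and 1.32 in KO-labelled libraries at the round stage. At the elongating stage it was 13.8 and 12.3 against 29.5 and 28.6. Transcript sequence limits both values: 77.8% of the 50-base windows of Adam1a transcripts and 32.4% of those of Adam1b also occur in another annotated gene, so how the authors' counting split such reads is uncertain.

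Adam2 (chr14:66027329-66077733), the shared fertilin beta subunit, also fell. It measured 4300 and 4538 at the round and 1401 and 1382 at the elongating stage in WT, against 4496 and 4297 and then 1008 and 1009 in KO-labelled cells. It fell with stage (log2 fold change -1.67, SE 0.04, adjusted p = 1.2e-14) and fell further in elongating KO-labelled cells (log2 fold change -0.46, SE 0.04, adjusted p = 2.7e-07), with no call in round cells (log2 fold change -0.01, adjusted p = 0.92).

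Adam3 (chr8:24677225-24725852), the egg-coat binding protein that depends on the fertilin subunits for its place on the surface, went the other way. It measured 17094 and 17418 in round and 33120 and 33306 in elongating WT libraries, against 17308 and 18620 in round and 54788 and 53788 in elongating KO-labelled ones. Adam3 rose in elongating KO-labelled cells (log2 fold change 0.71, SE 0.03, adjusted p = 1e-10), and the call held at 0.14 under total-count scaling. Its stage difference was 0.94 in the deposited scaling but -0.52 under total-count scaling and -0.07 with library sizes set without the 50 most abundant genes. Against Adam2 within each library, the ratio of Adam3 reads was 3.98 and 3.84 in WT against 3.85 and 4.33 in KO-labelled libraries at the round stage. It was 23.6 and 24.1 against 54.3 and 53.3 at the elongating stage, where the genotypes did not overlap.

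**Figure D4:**
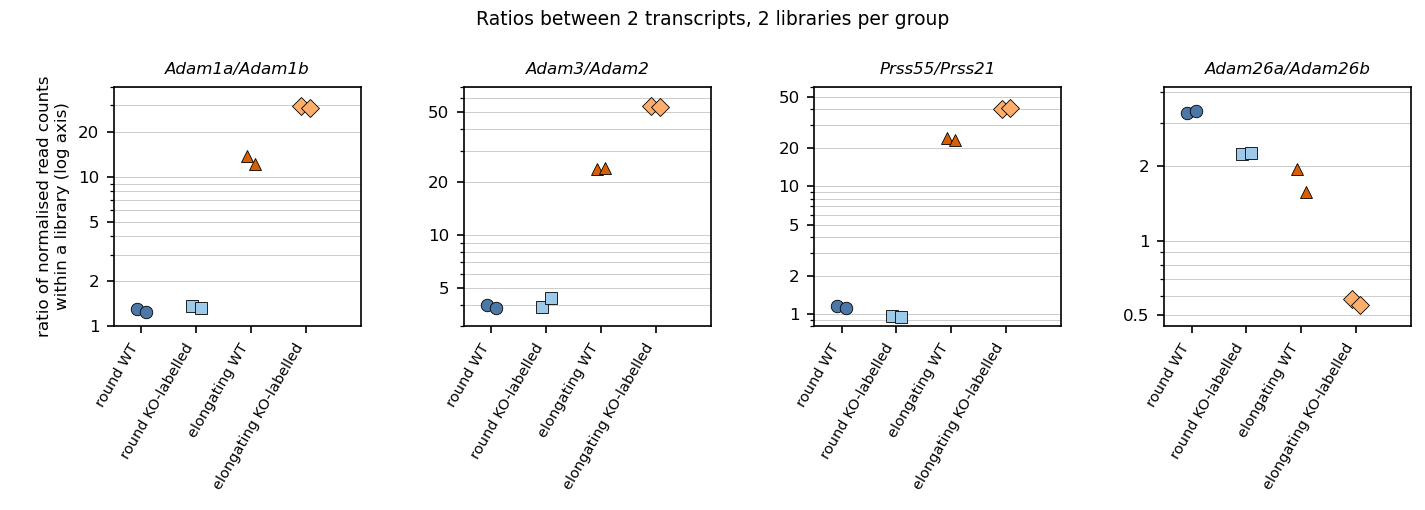
Ratio of the normalised read counts of 2 members within each library (log axis, not corrected for length), 1 point per library and 2 libraries per group. Adam1a to Adam1b and Adam3 to Adam2 are near level between the genotypes in round cells and higher in elongating KO-labelled than in elongating WT libraries, and Adam26a to Adam26b passes from 3.29 in the first round WT library to 0.551 in the lowest elongating KO-labelled library.

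Among 6 further ADAMs of the sperm surface, Adam4, Adam5, Adam6a, Adam6b, Adam18 and Adam32, 4 rose and 2 fell with stage. In elongating KO-labelled cells 2 rose and 3 fell, and in round KO-labelled cells 1 rose. Over all genes, rises and falls were 41.7% and 40.2% with stage and 27.3% and 27.7% in elongating KO-labelled cells. In round KO-labelled cells 19.4% of all genes rose. Adam5 (chr8:24727093-24824369), the highest of them per kilobase, measured 18406 and 18750 at the round and 29551 and 30215 at the elongating stage in WT, against 18670 and 18096 and then 39511 and 37268 in KO-labelled cells. Its rise in elongating KO-labelled cells (log2 fold change 0.36, SE 0.03, adjusted p = 1.4e-07) and its stage rise (log2 fold change 0.69, SE 0.03, adjusted p = 1.5e-11) turned to -0.20 and -0.78 under total-count scaling.

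Adam32 measured 10288 and 10428 in round and 7732 and 7724 in elongating WT libraries, against 11342 and 10697 in round and 8390 and 8065 in elongating KO-labelled ones. It fell with stage (log2 fold change -0.42, SE 0.03, adjusted p = 1.9e-08). Its rise in elongating KO-labelled cells, 0.09 with an adjusted p of 0.038, turned to -0.47 under total-count scaling and was lost without elongating KO-labelled library 1 (0.06, adjusted p = 0.22), elongating WT library 1 (0.09, adjusted p = 0.13), elongating WT library 2 (0.09, adjusted p = 0.13), round WT library 1 (0.09, adjusted p = 0.058) or round WT library 2 (0.09, adjusted p = 0.058). Adam18, of the same chromosome 8 cluster, fell with stage by 1.37 and in elongating KO-labelled cells by 0.27 on the log2 scale.

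Adam6a and Adam6b lie in the immunoglobulin heavy chain region of chromosome 12 and are close copies, with 29.5% and 29.6% of their windows found in another gene. Adam6a measured 764 and 833 at the round and 1546 and 1572 at the elongating stage in WT, against 743 and 810 and then 1102 and 1024 in KO-labelled cells, and fell in elongating KO-labelled cells (log2 fold change -0.55, SE 0.06, adjusted p = 2.4e-06). Adam6b measured 562 and 554 and then 1160 and 1220 in WT, and 663 and 681 and then 1115 and 1022 with the KO label. It rose in round KO-labelled cells (log2 fold change 0.27, SE 0.06, adjusted p = 0.0029) and fell in elongating ones (log2 fold change -0.16, SE 0.06, adjusted p = 0.036). That fall was lost without elongating KO-labelled library 2 (-0.09, adjusted p = 0.23), elongating WT library 2 (-0.12, adjusted p = 0.2), round WT library 1 (-0.16, adjusted p = 0.054) or round WT library 2 (-0.16, adjusted p = 0.054). Both genes rose with stage in the deposited scaling, by 0.97 and 1.09, and turned to -0.50 and -0.37 under total-count scaling.

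The 10 other testis ADAMs, several of them known as testases and most with few exons, mostly fell. With stage, 8 fell and 2 rose, with a median of -1.04, where 40.2% of all genes fell and 41.7% rose. In elongating KO-labelled cells 8 fell and 1 rose, with a median of -0.41 against -0.07 over all genes, of which 27.7% fell and 27.3% rose. Round spermatid markers, with a median of -0.78, spermatocyte markers, with -0.34, and elongating spermatid markers, with 0.81, also differed in that comparison. The part of these markers' cells in these falls was not tested. In round KO-labelled cells 2 fell and 1 rose, where 12.6% of all genes fell and 19.4% rose.

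Adam26a (chr8:43568278-43576707), known as testase 3, measured 1185 and 1129 in round and 303 and 307 in elongating WT libraries, against 1147 and 1152 in round and 200 and 185 in elongating KO-labelled ones. It fell with stage (log2 fold change -1.92, SE 0.07, adjusted p = 4.3e-13) and again in elongating KO-labelled cells (log2 fold change -0.66, SE 0.07, adjusted p = 6.2e-07). Its close copy Adam26b (chr8:43519762-43528106) measured 360 and 337 and then 156 and 195 in WT, and 513 and 509 and then 345 and 336 with the KO label. Adam26b fell with stage (log2 fold change -0.99, SE 0.10, adjusted p = 1.8e-07) and was the only member of this group to rise in KO-labelled cells, in round (log2 fold change 0.55, SE 0.10, adjusted p = 0.00054) and in elongating spermatids (log2 fold change 0.96, SE 0.10, adjusted p = 8.1e-07), and both rises held under the 2 other scalings.

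Reads of Adam26a outnumbered those of Adam26b 3.29 and 3.35 to 1 in round WT and 2.24 and 2.26 to 1 in round KO-labelled libraries. At the elongating stage the ratio was 1.94 and 1.58 in WT against 0.579 and 0.551 in KO-labelled libraries, where Adam26b was the more abundant copy by reads. Because 36.4% and 36.7% of their windows occur in another gene, part of each count rests on how shared reads were assigned.

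Adam20 and Adam25, whose promoters share the long run shown above, both fell. Adam20 measured 1162 and 1235 at the round and 406 and 323 at the elongating stage in WT, against 1085 and 1095 and then 235 and 234 in KO-labelled cells. It fell with stage (log2 fold change -1.72, SE 0.09, adjusted p = 5.4e-11) and in elongating KO-labelled cells (log2 fold change -0.63, SE 0.09, adjusted p = 2.2e-05). Adam25, known as testase 2, measured 606 and 622 and then 464 and 469 in WT, and 672 and 639 and then 363 and 298 with the KO label, with a smaller stage fall (log2 fold change -0.40, SE 0.08, adjusted p = 0.00049) and a fall in elongating KO-labelled cells (log2 fold change -0.50, SE 0.08, adjusted p = 0.00012). Their transcripts share 34.7% and 34.2% of windows with other genes, mainly with each other and with Adam39. Adam39 shares 36.1% of its windows, mainly with Adam20 and Adam25. Part of each of these 3 counts therefore rests on how shared reads were assigned, and their falls may not be independent. The part of shared reads in these falls was not tested.

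Adam34, known as testase 4, was lower in KO-labelled cells at both stages: it measured 328 and 352 in round WT against 240 and 228 in round KO-labelled libraries (log2 fold change -0.54, SE 0.11, adjusted p = 0.0016), and 150 and 172 in elongating WT against 98.9 and 88.6 in elongating KO-labelled libraries (log2 fold change -0.77, SE 0.11, adjusted p = 3e-05). Adam29 measured 740 and 715 in round and 281 and 274 in elongating WT libraries, against 725 and 714 in round and 219 and 187 in elongating KO-labelled ones, and fell with stage (log2 fold change -1.39, SE 0.08, adjusted p = 3.2e-10) and in elongating KO-labelled cells (log2 fold change -0.45, SE 0.08, adjusted p = 0.00023). Adam24 and Adam30 fell by 0.23 and 0.36 on the log2 scale in elongating KO-labelled cells.

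Adam21 stood apart within the group. It measured 444 and 457 at the round and 1635 and 1583 at the elongating stage in WT, against 363 and 377 and then 1594 and 1484 in KO-labelled cells. Adam21 rose with stage (log2 fold change 1.83, SE 0.06, adjusted p = 1.5e-13), a call that held under both other scalings, and fell in round KO-labelled cells (log2 fold change -0.28, SE 0.06, adjusted p = 0.0017). In elongating KO-labelled cells its difference was -0.06 (adjusted p = 0.36) in the deposited scaling and -0.63 under total-count scaling.

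The 16 testis serine proteases held both ends of the stage order, with 9 rises, 6 falls and a median of 0.75. These were 56.25% and 37.5% of the group, against 41.7% and 40.2% of all genes. In round KO-labelled cells 6 rose and none fell, 37.5% and 0%, against 19.4% and 12.6% of all genes. Under both other scalings the Prss52 rise was not called, at 0.09, and Prss37 and Prss58 fell, each at -0.18. Of all genes, 13.9% and 13.8% then rose and 19.4% and 19.1% fell. In elongating KO-labelled cells 6 rose and 4 fell, 37.5% and 25.0%, against 27.3% and 27.7% of all genes. Of those rises only Prss39 and Prss40 stayed called under both other scalings. Falls were then also called for Prss43, Prss45, Prss50, Prss51, Prss52, Prss55 and Prss58. These scalings had 8.77% and 10.5% of all genes rising and 62.3% and 58.8% falling there.

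Prss39 (chr1:34498410-34503063) and Prss40 (chr1:34543968-34560943) encode the acrosomal proteases also called TESP1 and TESP2. Prss39 measured 5681 and 5557 in round and 16579 and 16882 in elongating WT libraries, against 7546 and 7791 in round and 44874 and 42713 in elongating KO-labelled ones. No group overlapped another, and the elongating KO-labelled libraries were 2.62 times the elongating WT ones. It rose with stage (log2 fold change 1.57, SE 0.03, adjusted p = 6.4e-16), in round KO-labelled cells (log2 fold change 0.45, SE 0.03, adjusted p = 1.1e-07) and in elongating KO-labelled cells (log2 fold change 1.39, SE 0.03, adjusted p = 2.1e-13), where it had the largest rise of any member, and it stayed called under total-count scaling at 0.11, 0.36 and 0.82.

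Prss40 measured 656 and 673 at the round and 1843 and 1876 at the elongating stage in WT, against 792 and 824 and then 3109 and 2999 in KO-labelled cells, in the same order as Prss39. It rose in round (log2 fold change 0.28, SE 0.05, adjusted p = 0.00036) and in elongating KO-labelled cells (log2 fold change 0.72, SE 0.05, adjusted p = 6.4e-09), both held under the other scalings. Its stage rise of 1.48 was 0.02 and not called under total-count scaling. The ratio of Prss39 to Prss40 reads was 8.26 to 9.52 in the 4 round and 2 elongating WT libraries and 14.4 and 14.2 in the elongating KO-labelled libraries. These 2 genes share a locus of 62.5 kb, with no other gene of the table between them. Exons of Cfc1, an annotated gene on the other strand, overlap Prss40, and 11.2% of the Prss40 windows occur in Cfc1. These libraries do not mark strand, so part of the Prss40 count is uncertain.

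Prss58, Prss51, Prss52, Prss55 and Prss37 had the largest stage rises among the testis serine proteases, and all 5 held under both other scalings. Prss58 measured 393 and 403 in round and 5264 and 5598 in elongating WT libraries, against 365 and 384 in round and 5599 and 5476 in elongating KO-labelled ones (log2 fold change 3.77, SE 0.05, adjusted p = 2.9e-18). Prss51 measured 251 and 235 and then 2773 and 2722 in WT, and 256 and 272 and then 3382 and 3175 with the KO label (log2 fold change 3.50, SE 0.06, adjusted p = 6.5e-17). Prss52 measured 352 and 390 and then 3460 and 3376 in WT, and 432 and 406 and then 3557 and 3425 with the KO label (log2 fold change 3.20, SE 0.06, adjusted p = 1.4e-16). In the deposited scaling the elongating groups of Prss58 and of Prss52 overlapped between genotypes, and neither was called there. Under total-count scaling both fell in elongating KO-labelled cells, each at -0.53.

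Prss55 (chr14:64075438-64090162), a lipid-anchored protease needed for sperm to migrate into the oviduct, measured 964 and 959 at the round and 8130 and 7910 at the elongating stage in WT, against 991 and 1077 and then 10426 and 10429 in KO-labelled cells. It rose with stage (log2 fold change 3.06, SE 0.04, adjusted p = 6.4e-18). Its rise in elongating KO-labelled cells (log2 fold change 0.38, SE 0.04, adjusted p = 2.5e-06) turned to -0.18 under total-count scaling, as did that of Prss51, from 0.25 to -0.31. In round KO-labelled cells Prss52 rose by 0.18 (adjusted p = 0.029), a call lost without round KO-labelled library 1 (0.13, adjusted p = 0.19) or round WT library 1 (0.10, adjusted p = 0.3).

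Prss37 (chr6:40514824-40519508), a protease-like protein that is needed for ADAM3 to mature, measured 1319 and 1237 in round and 9684 and 10094 in elongating WT libraries, against 1166 and 1240 in round and 8487 and 7663 in elongating KO-labelled ones. It rose with stage (log2 fold change 2.95, SE 0.05, adjusted p = 1e-16) and fell in elongating KO-labelled cells (log2 fold change -0.29, SE 0.05, adjusted p = 0.00021). In the deposited scaling no other of these 5 genes fell there, while under total-count scaling the differences of all 5 were negative.

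Prss21 (chr17:23868056-23873114) encodes testisin, a lipid-anchored sperm protease. It measured 839 and 854 at the round and 342 and 345 at the elongating stage in WT, against 1033 and 1132 and then 262 and 254 in KO-labelled cells. Its knockout difference changed direction between the stages, with a rise in round (log2 fold change 0.35, SE 0.07, adjusted p = 0.00085) and a fall in elongating cells (log2 fold change -0.41, SE 0.07, adjusted p = 9.7e-05), and the change between stages was itself called (log2 fold change -0.76, SE 0.09, adjusted p = 1.2e-05). The round rise of Prss21 held under both other scalings. In elongating cells and for the change between stages these scalings lower every gene, so the other calls could not be lost. The ratio of Prss55 to Prss21 reads was 1.15 and 1.12 in WT against 0.959 and 0.951 in KO-labelled libraries at the round stage, and 23.8 and 23.0 against 39.8 and 41.0 at the elongating stage.

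The chromosome 9 serine proteases Prss42, Prss43, Prss44, Prss45, Prss46 and Prss50 are testis-expressed neighbours. Prss50 had the deepest stage fall of all members, from 485 and 451 in round WT to 32.2 and 37.5 in elongating WT libraries (log2 fold change -3.71, SE 0.13, adjusted p = 8e-13), with 409 and 402 and then 29.1 and 33.9 in the KO-labelled groups. Between genotypes it was not called in the deposited scaling, and under total-count scaling it fell in elongating KO-labelled cells, at -0.67. Prss46, the highest of them per kilobase in round WT cells, measured 1847 and 1881 in round and 566 and 633 in elongating WT libraries, against 1976 and 2164 in round and 465 and 432 in elongating KO-labelled ones, and fell in elongating KO-labelled cells (log2 fold change -0.42, SE 0.07, adjusted p = 7.6e-05).

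Prss42 measured 687 and 595 in round and 157 and 187 in elongating WT libraries, against 603 and 637 in round and 128 and 145 in elongating KO-labelled ones. It fell with stage (log2 fold change -1.89, SE 0.10, adjusted p = 1.6e-10), and its difference of -0.33 in elongating KO-labelled cells was lost without elongating KO-labelled library 1 (-0.24, adjusted p = 0.083) or elongating WT library 2 (-0.20, adjusted p = 0.17). Prss44 was the exception in direction: it measured 111 and 122 at the round and 82.5 and 101 at the elongating stage in WT, against 157 and 167 and then 124 and 147 in KO-labelled cells and rose at both stages, by 0.48 and 0.56. Its round call was lost without round KO-labelled library 1 (0.52, adjusted p = 0.06), round KO-labelled library 2 (0.43, adjusted p = 0.12), round WT library 1 (0.41, adjusted p = 0.14) or round WT library 2 (0.55, adjusted p = 0.051), and its elongating call was 0.00 under total-count scaling. Its stage difference of -0.34 was lost without elongating WT library 1 (-0.20, adjusted p = 0.25), round KO-labelled library 1 (-0.34, adjusted p = 0.053), round KO-labelled library 2 (-0.34, adjusted p = 0.053), round WT library 1 (-0.41, adjusted p = 0.056) or round WT library 2 (-0.28, adjusted p = 0.18). Prss45 was not called in any comparison in the deposited scaling, with values of 277 to 320 in all 8 libraries. Under total-count scaling it fell with stage in WT (-1.43) and in elongating KO-labelled cells (-0.44), and its difference of effects was called as lower (-0.48).

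Prss54 measured 1945 and 1919 in round and 2274 and 2302 in elongating WT libraries, against 2186 and 2241 in round and 3140 and 3212 in elongating KO-labelled ones. It rose in round KO-labelled cells (log2 fold change 0.20, SE 0.04, adjusted p = 0.0014), under every scaling tried. Its rise in elongating KO-labelled cells (log2 fold change 0.47, SE 0.04, adjusted p = 8e-08) was -0.09 under total-count scaling, and its stage rise of 0.24 turned to -1.22.

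The 8 somatic proteolytic ADAMs, which cut growth factors, cytokines and receptors from the surface of many cell types, were weakly expressed. With stage 4 rose and 2 fell, and in elongating KO-labelled cells 1 rose and 3 fell. Over all genes, rises and falls were 41.7% and 40.2% with stage and 27.3% and 27.7% in elongating KO-labelled cells. Adam10 and Adam17, the main sheddases, measured 90.2 to 114 and 58.4 to 160 over the 8 libraries and were not called between genotypes at either stage in the deposited scaling. Under total-count scaling both fell in elongating KO-labelled cells, at -0.54 and -0.87, and Adam17 also fell in round ones, at -0.49. Adam15 measured 464 and 452 at the round and 272 and 283 at the elongating stage in WT, against 342 and 345 and then 171 and 204 in KO-labelled cells, and was the member of this group that fell in KO-labelled cells at both stages (log2 fold change -0.41, SE 0.09, adjusted p = 0.0029 in round; log2 fold change -0.57, SE 0.09, adjusted p = 9e-05 in elongating). An annotated gene on the other strand overlaps part of Adam15, and these libraries do not mark strand.

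Adam19, Adam12 and Adam33, members with few reads, rose with stage by 3.28, 1.99 and 1.91 in the deposited scaling, of which only the rise of Adam19 stayed called under both other scalings. Adam19 measured 5.73 and 10.3 in round and 101 and 69.2 in elongating WT libraries, against 6.99 and 9.58 in round and 38.8 and 45.2 in elongating KO-labelled ones. Adam12 measured 6.36 and 12.1 and then 43.8 and 33.2 in WT, and 6.36 and 6.76 and then 73.7 and 77.3 with the KO label, and Adam33 measured 4.45 and 4.24 and then 16.8 and 21.6 in WT, and 3.18 and 6.2 and then 7.76 and 5.66 with the KO label. In elongating KO-labelled against WT libraries Adam19 and Adam33 were lower, as were the summed macrophage and Sertoli markers (1746 to 1823 against 4198 to 4219, and 4466 to 4611 against 6172 to 6270), and Adam12 was higher, as were the contractile markers Acta2 and Myh11 but not the endothelial markers Cdh5 and Pecam1, which were lower. The part of these cells in these differences was not tested.

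In numbers, the elongating knockout difference of Adam12 was 0.97 (SE 0.32, adjusted p = 0.021), lost without elongating KO-labelled library 2 (0.93, adjusted p = 0.061) or elongating WT library 2 (0.77, adjusted p = 0.13) and at 0.41 under total-count scaling. That of Adam19 was -0.98 (SE 0.33, adjusted p = 0.021), lost without elongating KO-labelled library 1 (-0.87, adjusted p = 0.073) or elongating WT library 1 (-0.71, adjusted p = 0.18). That of Adam33 was -1.39 (SE 0.44, adjusted p = 0.015), lost without elongating KO-labelled library 2 (-1.19, adjusted p = 0.057).

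The 3 neural ADAMs, Adam11, Adam22 and Adam23, lack a working protease site and act as receptors of secreted LGI proteins in the brain. Adam11 had the largest round-stage rise of any member: it measured 139 and 130 at the round and 141 and 167 at the elongating stage in WT, against 289 and 286 and then 272 and 230 in KO-labelled cells. The round rise (log2 fold change 1.09, SE 0.12, adjusted p = 5.3e-06) held under both other scalings, while the elongating rise of 0.70 (adjusted p = 0.00012) was 0.14 under total-count scaling. Adam22 fell with stage, from 155 and 167 in round WT to 34.8 and 62 in elongating WT libraries (log2 fold change -1.77, SE 0.22, adjusted p = 2.9e-06), with 177 and 203 and then 44.6 and 58.4 in KO-labelled cells.

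The 8 other serine proteases are known mainly outside the testis and were mostly weakly expressed. Prss56, a protease known from eye development, measured 124 and 120 in round and 36.1 and 47.6 in elongating WT libraries, against 228 and 206 in round and 56.2 and 41.5 in elongating KO-labelled ones. It rose in round KO-labelled cells (log2 fold change 0.82, SE 0.18, adjusted p = 0.0029) and fell with stage (log2 fold change -1.54, SE 0.18, adjusted p = 1.5e-06). Prss48 measured 80.2 and 70.2 and then 56.7 and 44.7 in WT, and 97.9 and 101 and then 23.3 and 37.7 with the KO label, and its fall in elongating KO-labelled cells (log2 fold change -0.74, SE 0.23, adjusted p = 0.012) was lost without elongating KO-labelled library 1 (-0.41, adjusted p = 0.11) or elongating WT library 1 (-0.58, adjusted p = 0.1). The stage fall of Prss48, -0.57, was lost without elongating WT library 2 (-0.40, adjusted p = 0.2), round KO-labelled library 1 (-0.57, adjusted p = 0.051), round KO-labelled library 2 (-0.57, adjusted p = 0.051), round WT library 1 (-0.47, adjusted p = 0.16) or round WT library 2 (-0.66, adjusted p = 0.058).

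Prss12, also called neurotrypsin, measured 4.45 and 3.03 at the round and 20.6 and 14.4 at the elongating stage in WT, against 1.91 and 1.69 and then 33 and 30.2 in KO-labelled cells. Prss23 measured 5.73 and 6.05 and then 41.3 and 34.6 in WT, and 3.18 and 4.51 and then 34.9 and 18.9 with the KO label, and Prss35 measured 22.9 and 24.2 and then 47.7 and 56.2 in WT, and 11.4 and 18.6 and then 69.8 and 66 with the KO label. All 3 rose with stage, by 1.96, 2.49 and 1.10, and under total-count scaling these were 0.69, 1.15 and -0.32. Prss53 measured 7 and 16.3 and then 7.73 and 7.21 in WT, and 19.1 and 20.3 and then 3.88 and 3.77 with the KO label, with 79.5% of its transcript windows found in another gene. The summed macrophage, Sertoli and peritubular markers given above also rose from round to elongating libraries, and their part in these rises was not tested.

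Members that lie next to each other in the genome did not always move together. With a gap of at most 500 kb, 12 clusters held more than 1 member. On chromosome 14, Prss55, Prss51 and Prss52 lie within 38.3 kb and all 3 rose with stage. On chromosome 9, the 6 serine proteases lie within 66.5 kb, and 5 fell. Prss45 was not called in the deposited scaling and fell under total-count scaling, at -1.43. On chromosome 8, Adam18, Adam3, Adam5, Adam32 and Adam9 lie within 414.7 kb with no other gene of the table between them, and 3 rose while 2 fell in the deposited scaling, where the rises of Adam3, Adam5 and Adam9 all turned under total-count scaling, to -0.52, -0.78 and -0.71. Adam1a and Adam1b, 45.4 kb end to end, went in opposite directions in both comparisons, and Prss41 and Prss21, 36.3 kb end to end on chromosome 17, did so with stage in the deposited scaling, where Prss41 was at 1.25. Under total-count scaling Prss41 was at -0.20 and not called.

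**Figure D5:**
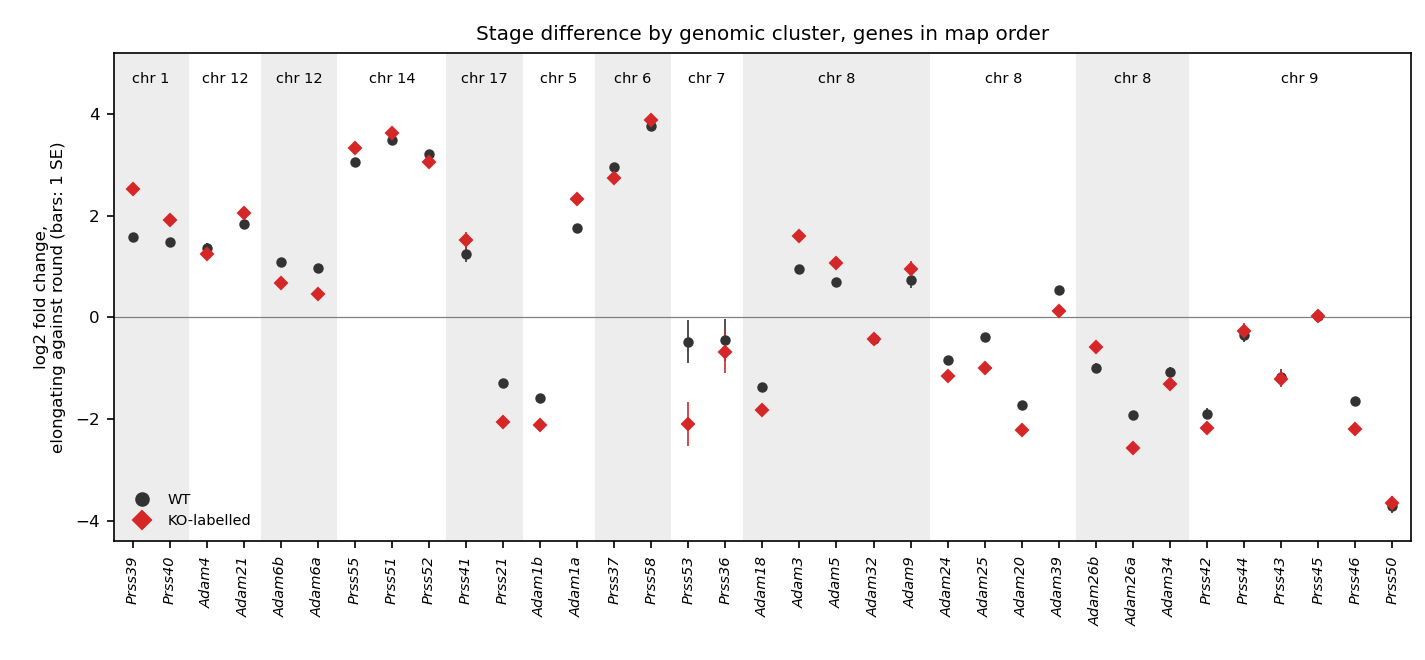
Log2 fold change of elongating against round spermatids for the members of 12 genome clusters, in map order within each cluster, in WT (circles) and KO-labelled cells (diamonds), with bars of 1 SE. The 3 members of the chromosome 14 cluster lie above 3 in both genotypes, and Adam1a and Adam1b lie on opposite sides of 0 in both.

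Genes that the surface ADAMs depend on were counted from a list of 18 maturation and processing genes. In elongating KO-labelled cells 4 rose and 11 fell, with a median of -0.33, and in round KO-labelled cells 6 rose and 8 fell. With stage, 9 rose and 8 fell. Over all genes, rises and falls were 27.3% and 27.7% in elongating KO-labelled cells, 19.4% and 12.6% in round ones, and 41.7% and 40.2% with stage. Both other scalings gave 2 rises and 16 falls in elongating and 4 rises and 9 falls in round KO-labelled cells. The shares of all genes for these scalings are given above, apart from the rises in round cells, 13.9% and 13.8%. The genes that fell included chaperones of the endoplasmic reticulum and processing enzymes.

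Clgn, the calmegin chaperone needed to assemble fertilin, measured 11709 and 11765 in round and 3154 and 3259 in elongating WT libraries, against 10202 and 10080 in round and 1846 and 1742 in elongating KO-labelled ones. It fell in round (log2 fold change -0.21, SE 0.04, adjusted p = 0.00046) and in elongating KO-labelled cells (log2 fold change -0.84, SE 0.04, adjusted p = 7e-11). Pdilt, a partner chaperone needed for ADAM3, fell by 0.55 on the log2 scale in elongating KO-labelled cells (adjusted p = 4.7e-08), and Tpst2, Furin and Lypd4 fell by 1.08, 0.77 and 0.56 on that scale.

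Ace, whose testis form is needed for ADAM3 to reach the surface, was among the genes that rose. It measured 7262 and 7237 at the round and 71528 and 72228 at the elongating stage in WT, against 7758 and 7671 and then 114400 and 111850 in KO-labelled cells and rose in elongating KO-labelled cells (log2 fold change 0.65, SE 0.03, adjusted p = 2.3e-11), by 0.09 under total-count scaling. Pmis2, also needed for ADAM3 on sperm, measured 1042 and 1096 in round and 4048 and 4293 in elongating WT libraries, against 1260 and 1302 in round and 8149 and 7490 in elongating KO-labelled ones, and rose at the elongating stage (log2 fold change 0.91, SE 0.05, adjusted p = 6.6e-10), by 0.34 under total-count scaling. Pcsk4 and Ly6k rose by 0.35 and 0.17 in elongating KO-labelled cells, and turned to -0.21 and -0.39 under total-count scaling.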

How the data were processed

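Poly A RNA libraries of mouse spermatids were made with the TruSeq RNA Library Prep Kit v2, which does not mark strand, per the labels' protocols. Tools listed, per the submitters' processing notes, are DESeq 1.16.0, HTSeq 0.6.0, TopHat2 2.0.10 and CASAVA 1.8.2, with the builds mm10 and GRCm38. Strand setting and gene models of the counting were not given in the sources used here. In the deposited table the authors give a normalised signal per gene and library. Its steps are those of whole reads over a size factor, since after division by the lowest nonzero value of the library 100% of values were whole within 1e-06. The sum of these reads is the depth given per library.

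The labels gave each library its group. Of 16349 genes, the 15685 that reached a value of 10 in 2 or more libraries were tested with limma 3.58.1 in R 4.3.3 on log2(value + 1), with an empirical Bayes trend and 4 group means over all 8 libraries (4 residual degrees of freedom). Tests are two-sided, and p-values were adjusted over all genes tested. The procedure was tested on simulated data. Fold changes on this scale understate the change of low genes.

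Alternatives were total-count scaling, library sizes without the 50 most abundant genes, edgeR 4.0.16 and DESeq2 1.42.0 on recovered reads, a pseudocount of 10, no filter, only the compared groups, a replicate block and leaving out each library. Positions and exon lengths are from GENCODE M21 on GRCm38, matched for all 55 members by symbol. The members, roles and lists were chosen with earlier results of these data known. Members named with values are those with the highest level per kilobase (6 in each WT group), up to 10 with the largest rise and 10 with the largest fall per contrast among called members whose libraries do not overlap, and Adam1a, Adam1b, Adam2, Adam3, Prss21, Prss37 and Prss55. Other members named were chosen after their values were seen.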

Additional observations from a re-analysis of the deposited data

Results flagged for a closer look

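The knockout effect differed between the stages for 27 members by a test of the difference itself, the interaction term of limma, adjusted over all genes. All values here are log2 differences between the effect of the KO label in elongating and in round spermatids.

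Among the ADAMs of the sperm surface it was higher in elongating cells for Adam3 (0.65), Adam1a (0.57) and Adam5 (0.38), and lower for Adam1b (-0.53), Adam6a (-0.51), Adam2 (-0.46), Adam18 (-0.44) and Adam6b (-0.42). The value of Adam3 held under both other scalings, which lower every gene and so could not turn the genes named as lower, while Adam1a was not called under total-count scaling and Adam5 turned in sign.

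Among the other testis ADAMs it was lower for Adam26a (-0.66), Adam25 (-0.60), Adam20 (-0.49, and -0.33 without elongating WT library 1), Adam29 (-0.44), Adam39 (-0.40) and Adam24 (-0.32). For Adam39 the call was lost without round WT library 1 (-0.32, adjusted p = 0.055). Adam26b went the other way (0.41), a call lost without elongating WT library 1 (0.25, adjusted p = 0.12), round KO-labelled library 1 (0.41, adjusted p = 0.083), round KO-labelled library 2 (0.40, adjusted p = 0.09), round WT library 1 (0.36, adjusted p = 0.12) or round WT library 2 (0.46, adjusted p = 0.053).

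Among the testis serine proteases it was higher for Prss39 (0.94), Prss40 (0.43), Prss54 (0.28) and Prss55 (0.28), of which the Prss39 value held under both other scalings. It was lower for Prss21 (-0.76), Prss46 (-0.57) and Prss37 (-0.21), and that of Prss37 was lost without elongating KO-labelled library 2 (-0.13, adjusted p = 0.14), elongating WT library 1 (-0.24, adjusted p = 0.06), elongating WT library 2 (-0.18, adjusted p = 0.15), round KO-labelled library 2 (-0.16, adjusted p = 0.14) or round WT library 2 (-0.16, adjusted p = 0.17).

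The weakly expressed members had larger values with wider errors: Prss12 at 1.58 (SE 0.57), Adam12 at 1.34 (SE 0.46), Prss35 at 1.04 (SE 0.37), Prss48 at -1.15 (SE 0.32) and Prss53 at -1.62 (SE 0.61). Each of these calls was lost without at least 2 of the libraries. That of Prss12 was lost without any 1 library other than elongating WT library 1, with adjusted p-values of 0.053 to 0.15 and a lowest value of 1.33. That of Adam12 was lost without elongating KO-labelled library 2 (1.31, adjusted p = 0.055), elongating WT library 2 (1.15, adjusted p = 0.11), round KO-labelled library 1 (1.31, adjusted p = 0.082), round KO-labelled library 2 (1.38, adjusted p = 0.066) or round WT library 2 (0.93, adjusted p = 0.16). That of Prss35 was lost without elongating KO-labelled library 1 (1.00, adjusted p = 0.063), elongating WT library 1 (0.92, adjusted p = 0.11), elongating WT library 2 (1.15, adjusted p = 0.052), round KO-labelled library 1 (0.71, adjusted p = 0.17), round WT library 1 (1.07, adjusted p = 0.081) or round WT library 2 (1.00, adjusted p = 0.1). That of Prss48 was lost without elongating WT library 1 (-0.98, adjusted p = 0.052) or round WT library 2 (-1.06, adjusted p = 0.054). That of Prss53 was lost without any 1 library other than round WT library 2, at -1.07 to -1.67 with adjusted p-values of 0.052 to 0.24.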

How the results depend on the processing

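Of 2512 values for the 40 members named by the rule under 16 alternatives, 2287 kept the call or stayed uncalled. Of the rest, 115 lost the call, 68 gained it and 42 reversed, all 42 under the 2 other scalings. A reversal was counted only where at least 1 of the 2 values compared was called. Uncalled values that changed sign, such as Adam3 in round KO-labelled cells (0.06, and -0.03 under total-count scaling), are among the 2287. Total-count scaling put the median of all genes at -0.06 in round KO-labelled against WT, -0.61 in elongating, -0.49 for the difference of effects and -1.48 for stage in WT. Library sizes without the 50 most abundant genes put it at -0.06, -0.55, -0.43 and -1.03. Members above and below the median gene numbered 26 and 29 in elongating spermatids in the deposited scaling and 25 and 30 under total-count scaling, and 28 and 27 for stage in WT under both.

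Counts of members called moved as follows. In round spermatids the rises were 19 with edgeR, and the falls were 9 with edgeR, 8 with only the 2 groups compared, 10 under each other scaling, and 3 to 6 when 1 library was left out. In elongating spermatids both other scalings gave 4 rises and 39 falls. For the difference of effects the higher ones were 7 with DESeq2, 3 with library sizes without the 50 most abundant genes, 2 under total-count scaling and 7 to 10 with 1 library left out, and the lower ones were 30, 34 and 14 to 19 for the last 3 of these. Of all genes, library sizes without the 50 most abundant genes and total-count scaling had 6.78% and 5.46% higher for that difference, and 40.1% and 44.4% lower. Stage rises were 15 and 10 under the 2 scalings in WT, and in KO-labelled cells they were 15 and 9, with 37 and 40 falls. With stage, 24.3% and 18.7% of all genes then rose in WT, and in KO-labelled cells 21.7% and 16.1% rose and 66.8% and 74.4% fell. The share of called members that rose went from 76.9% to 47.4% in round and from 38.2% to 9.3% in elongating spermatids under total-count scaling. The calls over all genes moved the same way. In round they went from 3041 rises and 1977 falls to 2199 and 3074, and in elongating spermatids from 4279 and 4348 to 1390 and 9871. With only the 2 groups compared, 3954 of 15685 genes rose and 2963 fell in round spermatids. For the difference of effects, DESeq2 called 2566 of 15685 genes higher, against 3031 with limma. Over all genes, edgeR called 4156 rises and 3163 falls in round spermatids, where leaving out 1 library gave 2123 to 3440 rises and 1176 to 2445 falls.

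These reversals all went from above to below 0. Under total-count scaling the elongating knockout difference was -0.47 for Adam32, -0.20 for Adam5, -0.31 for Prss51, -0.53 for Prss52, -0.091 for Prss54, -0.18 for Prss55 and -0.53 for Prss58. The stage difference was -1.27 for Adam11, -0.52 for Adam3, -0.78 for Adam5, -0.50 for Adam6a, -0.37 for Adam6b, -0.32 for Prss35 and -1.22 for Prss54. The difference of effects was -0.26 for Adam21, -0.065 for Adam26b, -0.47 for Adam32, -0.10 for Adam5, -0.041 for Prss40, -0.34 for Prss51, -0.20 for Prss54, -0.20 for Prss55 and -0.36 for Prss58. When the 50 most abundant genes were left out of library sizes, the elongating knockout difference was -0.41 for Adam32, -0.14 for Adam5, -0.25 for Prss51, -0.47 for Prss52, -0.027 for Prss54, -0.12 for Prss55 and -0.47 for Prss58. The stage difference was then -0.83 for Adam11, -0.074 for Adam3, -0.33 for Adam5, -0.052 for Adam6a and -0.78 for Prss54, and the difference of effects was -0.0023 for Adam26b, -0.41 for Adam32, -0.035 for Adam5, -0.28 for Prss51, -0.13 for Prss54, -0.14 for Prss55 and -0.29 for Prss58. Each scaling multiplies all values of a library by 1 factor.

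The labels do not say whether replicate numbers pair the samples. Deviations of same-numbered libraries correlated between -0.015 and 0.031. With 2 libraries per group that differ by little, such correlations cannot show whether samples were paired. With the replicate block 10 members rose and 3 fell in round, 13 rose and 21 fell in elongating spermatids, 25 rose and 24 fell with stage, and 11 and 15 differed in effect. 159 values of named members kept their call or stayed uncalled, and Prss53 lost its call for the difference of effects at -1.62 with an adjusted p of 0.053. Libraries of a group differed by a chi-square of 1.39 to 2.39 per gene. With 2 libraries per group the design gives 4 residual degrees of freedom, and members below a count of 10 have wide errors. A p above 0.05 does not show that values were alike.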

Other observations

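Acrosin and the genes that act with it were counted as well. Among 3 other sperm trypsin-like proteases, 2 fell in elongating KO-labelled cells and none rose, where 27.7% of all genes fell and 27.3% rose. Acr, the acrosomal protease acrosin, measured 4513 and 4374 in round and 1091 and 1068 in elongating WT libraries, against 4980 and 5086 in round and 692 and 699 in elongating KO-labelled ones. It rose in round (log2 fold change 0.18, SE 0.04, adjusted p = 0.0036), a call lost under total-count scaling at 0.09, and fell in elongating KO-labelled cells (log2 fold change -0.63, SE 0.04, adjusted p = 5e-09). Of 9 acrosin partners and serine protease inhibitors in the table, 7 fell and none rose in elongating KO-labelled cells, while 3 rose and none fell in round ones. Those were 77.8% falls in elongating and 33.3% rises in round cells, against 27.7% and 19.4% of all genes. Under each of the 2 other scalings 8 of the 9 fell in elongating and 4 fell and none rose in round KO-labelled cells, where 62.3% and 58.8% of all genes fell in elongating and 19.4% and 19.1% in round cells. Zpbp2, an acrosomal egg-coat binding protein, measured 3647 and 3734 at the round and 685 and 675 at the elongating stage in WT, against 3506 and 3354 and then 372 and 302 in KO-labelled cells (log2 fold change -1.02, SE 0.07, adjusted p = 1.7e-08 in elongating cells). Spink2, an inhibitor that guards the acrosome against early protease activity, fell there by 0.24 on the log2 scale.

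Of 11 regulators of somatic ADAMs in the table, 2 rose and 2 fell in elongating KO-labelled cells, and 8 rose and 2 fell with stage in WT. The elongating calls were 18.2% each way, against 27.3% and 27.7% of all genes. The stage calls were 72.7% and 18.2%, against 41.7% and 40.2% of all genes. Under total-count scaling 3 of the 11 rose and 4 fell with stage, where 18.7% and 70.3% of all genes did. Library sizes without the 50 most abundant genes gave 5 rises and 4 falls, where 24.3% and 62.2% of all genes rose and fell. Timp3, a secreted inhibitor of metalloproteases, measured 12.7 and 8.47 in round and 202 and 187 in elongating WT libraries, against 20.3 and 19.7 in round and 516 and 456 in elongating KO-labelled ones (log2 fold change 1.31, SE 0.19, adjusted p = 3.9e-05 in elongating cells). Reck, a membrane-anchored inhibitor of the same enzymes, measured 80.2 and 83.5 and then 33.5 and 41.8 in WT, and 85.8 and 88.5 and then 60.1 and 66 with the KO label (log2 fold change 0.73, SE 0.18, adjusted p = 0.0027), a call lost under total-count scaling at 0.18, while that of Timp3 held at 0.75. The peritubular markers Acta2 and Myh11 also rose in elongating KO-labelled cells, while the endothelial markers Cdh5 and Pecam1 fell, and their part in these values was not tested.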
